A study of Mus musculus with 4 samples.

Results

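The Schlafen genes of the mouse lie in a row on chromosome 11, and this account follows the MED1 occupancy mapped around them in RAW 264.7 cells, a macrophage-like line derived from a mouse tumour induced by Abelson leukaemia virus. The 8 protein-coding genes Slfn5, Slfn9, Slfn8, Slfn2, Slfn1, Slfn4, Slfn3 and Slfn14 were taken by name, out of 21887 protein-coding genes that RefSeq places on chromosomes 1 to 19, X and Y of GRCm38.p6, the assembly known as mm10. MED1 ChIP-seq libraries had been made from cells given LPS, a component of the bacterial envelope, for 2 h (2 libraries) and from untreated cells (2 libraries). For the LPS dose the sample labels state 10 ng/mL and the treatment protocol 100 ng/mL. All cells had been cross-linked with DSG and formaldehyde before precipitation with 1 MED1 antibody.

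A list of 53764 intervals was analysed, deposited for all 4 libraries together. It gives positions without heights, significance values or a condition, so cells given LPS could not be set against untreated cells, and none of the values below measures a spread between libraries. No p-value is therefore given, and depth is unknown. Intervals that abut were joined into 22570 regions. A region was counted for a gene if it overlapped the gene or if the middle of the region was no more than 50 kb from either gene end. The macrophage label was checked on marker genes: a region overlapped 10 of 10 macrophage markers, against 3 of 8 T cell, 0 of 6 B cell, 1 of 4 platelet and megakaryocyte and 2 of 6 neuronal markers. Of all protein-coding genes, 50.6% were overlapped. The 50 kb rule separated the lists less. By it 10 of 10 macrophage, 6 of 8 T cell and 5 of 6 B cell markers had a region. So did 4 of 4 platelet and megakaryocyte and 3 of 6 neuronal markers, compared with 70.6% of all protein-coding genes.

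Schlafen proteins are known mainly from blood cells, where several are induced by interferon or by ligands of Toll-like receptors, and many bind or cleave RNA. Mouse members are commonly sorted by length. The short ones are Slfn1, whose forced expression slows T cell growth, and Slfn2, which T cells and monocytes need to keep their resting state. Those of intermediate length are Slfn3, described in T cells and, in the rat, in gut epithelium, and Slfn4, a myeloid gene induced by interferon and Toll-like receptor ligands. The long ones carry a helicase-like part and comprise Slfn5, Slfn8, Slfn9 and Slfn14, of which human SLFN5 acts in the nucleus on interferon-stimulated transcription and SLFN14 cleaves RNA on ribosomes and is mutated in an inherited platelet disorder. MED1 is a subunit of Mediator, which passes signals from DNA-bound factors to the polymerase, and it accumulates at active promoters and enhancers.

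The bases just before the starts of the short and intermediate genes are shown because these genes share letters there, although MED1 regions cover the starts of Slfn2, Slfn4 and Slfn3 and not that of Slfn1. The sequences run 5′ to 3′ in the direction of transcription, from 100 bases to 1 base before the start, and come from RefSeq (GRCm38.p6). Capitals mark ACTTCCTGG, the longest run present in all 4 start windows, a start window being the 250 bases before to 50 bases after the start.
Slfn2 (chr11:83065012-83065111, + strand): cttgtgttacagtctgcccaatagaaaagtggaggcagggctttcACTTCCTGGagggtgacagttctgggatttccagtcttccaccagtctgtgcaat
Slfn1 (chr11:83116720-83116819, + strand): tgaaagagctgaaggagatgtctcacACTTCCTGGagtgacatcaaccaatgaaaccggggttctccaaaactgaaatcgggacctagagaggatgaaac
Slfn4 (chr11:83175086-83175185, + strand): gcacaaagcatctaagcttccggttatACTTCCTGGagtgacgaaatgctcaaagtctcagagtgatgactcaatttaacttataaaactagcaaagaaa
Slfn3 (chr11:83191230-83191329, + strand): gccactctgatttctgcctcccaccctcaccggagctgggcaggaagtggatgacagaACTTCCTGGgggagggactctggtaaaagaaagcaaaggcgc

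The run was singled out after these sequences had been read. It began 55 bases before the start of Slfn2, 74 before that of Slfn1, 73 before that of Slfn4 and 42 before that of Slfn3, and in none of the other 4 members was it found on either strand. Read on the other strand it contains GGAA, the core letters of sites for ETS factors, a family that includes the macrophage factor PU.1. Of the 17492 protein-coding genes with a start window in the RefSeq table, 162 (0.926%) held the run on either strand. Slfn2, Slfn1 and Slfn4 shared a longer run, ACTTCCTGGAG, found in 18 windows (0.103%). Slfn1 and Slfn4 shared 15 bases, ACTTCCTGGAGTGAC, and no other of the 17492 start windows held them. Pairs of member windows that include a long member, Slfn9 with Slfn8 aside, had longest shared runs of 7 to 10 bases. A shared run of 9 bases between 2 members was thus not particular to the short and intermediate genes. A MED1 region lay at 80 of the 162 windows with the 9-base run (49.4%), close to the 43.7% of all start windows. Genes of 1 family can share sequence by descent, so these matches cannot be taken as independent of each other. Whether the run was inherited from a common ancestor was not tested.

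The other 4 members are shown for letters of the interferon-stimulated response element, a site bound by interferon regulatory factors. Capitals mark its core, GAAANNGAA on either strand. The stretches of Slfn9 and Slfn8 run from 100 bases to 1 base before the start, and those of Slfn5 and Slfn14 from 200 to 101 bases before it.
Slfn5 (chr11:82951902-82952001, + strand): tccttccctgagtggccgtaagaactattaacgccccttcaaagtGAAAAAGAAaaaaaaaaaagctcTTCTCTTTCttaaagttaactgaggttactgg
Slfn9 (chr11:82991831-82991930, - strand): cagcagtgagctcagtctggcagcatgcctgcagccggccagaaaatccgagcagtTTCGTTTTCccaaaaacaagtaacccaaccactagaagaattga
Slfn8 (chr11:83020811-83020910, - strand): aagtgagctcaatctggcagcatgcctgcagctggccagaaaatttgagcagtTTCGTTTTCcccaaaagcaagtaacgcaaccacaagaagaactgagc
Slfn14 (chr11:83286827-83286926, - strand): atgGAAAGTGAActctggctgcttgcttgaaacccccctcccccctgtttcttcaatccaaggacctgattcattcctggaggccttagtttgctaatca

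The interferon core was present in the start windows of Slfn5 (at 2 places), Slfn9, Slfn8 and Slfn14, which are the long members, and absent from those of Slfn2, Slfn1, Slfn4 and Slfn3. In all, 4 of 8 members held it, compared with 8.25% of the 17492 start windows and 14 of 22 windows of a list of interferon-response genes. The matches of Slfn9 (44 to 36 bases before the start) and Slfn8 (47 to 39 bases before it) had the same letters, GAAAACGAA on the strand opposite to the gene. They lie within related sequence: the 2 windows were identical in 80.5% of alignment columns, while the other 27 of the 28 pairs of member windows reached 41.6 to 49.4%. No value for windows of unrelated genes is given, so the lower figures cannot be read as likeness. The longest run that Slfn9 and Slfn8 shared there was 20 bases, shorter than the 50-base reads, so reads within these windows differed between the pair. The gene bodies and the parts of the MED1 regions outside these windows were not compared. Whether the alignment of reads told the 2 genes apart was not tested. Start windows with the interferon core carried a MED1 region in 39.7% of cases, against 43.7% of all. Within the family, regions lay at the starts of Slfn5, Slfn9 and Slfn8, and none at that of Slfn14, which held the core 197 to 189 bases before its start.

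Other motifs were found in fewer members. GAGGAAG, a PU.1 core, occurred in the windows of Slfn9 and Slfn14 (13.5% of all windows). TGANTCA, a loose pattern for the AP-1 site TGA(C/G)TCA, occurred in 7.08% of all windows. In Slfn4 the match was TGACTCA, 34 to 28 bases before the start. In Slfn14 it was TGATTCA, which fits the loose pattern only. The NF-kB motif occurred in Slfn9 and Slfn1 (8.86% of all). All motifs were searched on both strands. The window of Slfn4 had a GC content of 33.7%, and the other 7 had 49.0 to 53.0%, against a median of 56.3% over all windows (quartiles 47.9 and 64.3%).

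MED1 regions were found near every Schlafen gene and at the starts of most. All 8 members had at least 1 region overlapping the gene or within 50 kb, compared with 70.6% of protein-coding genes. A region overlapped the body of 6 members, Slfn5, Slfn9, Slfn8, Slfn2, Slfn4 and Slfn3, compared with 50.6% of genes. The same 6 had a region in the start window, compared with 43.7% of genes, and in each of the 6 the whole window lay inside the region, compared with 40.0%. With 8 neighbouring genes that share regions, these counts describe the cluster and do not show that it differs from other genes.

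**Figure D1:**
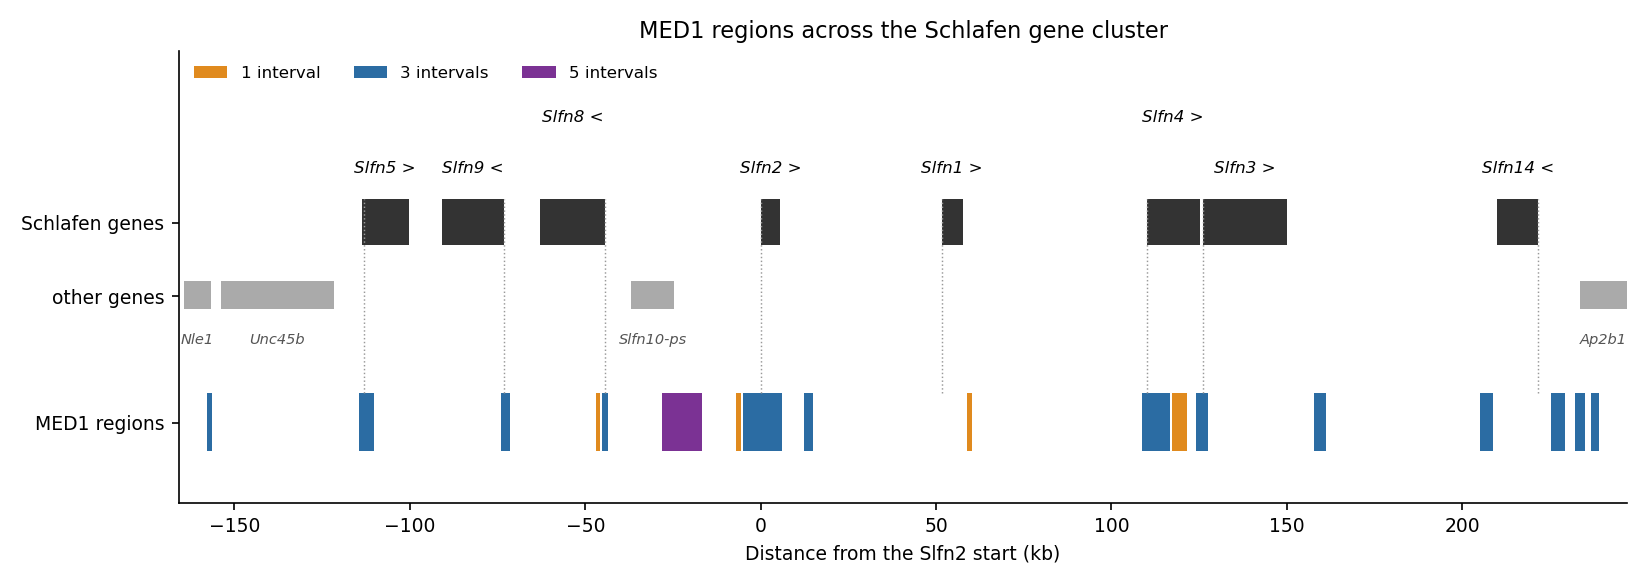
The Schlafen cluster drawn to scale, with the distance from the Slfn2 start in kb on the horizontal axis, gene bodies above (arrowheads in the names give the direction of transcription, dotted lines the starts) and the 18 MED1 regions below, coloured by the number of intervals joined. Dotted lines meet a region at 6 genes and none at Slfn1 and Slfn14. Small non-coding genes and pseudogenes other than Slfn10-ps are not drawn, nor is every coding gene at the edges, and Ap2b1 runs on beyond the right edge.

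In total 18 separate regions with 48 intervals were counted for the family, and 8 of them overlapped a member. Of the 18, 12 were counted for more than 1 member and up to 3 members shared a region, so counts per gene cannot be added up. The stretch from the first base of Slfn5 to the last of Slfn14 (335 kb) held 14 regions, or 4.17 per 100 kb, and 17.8% of its bases lay in regions. Chromosome 11 as a whole had 1.49 regions per 100 kb (4.21% of bases) and all chromosomes together 0.834 (2.21%). The stretch is a row of genes, while each chromosome was taken from its first to its last annotated gene. These densities are therefore not matched for gene content. The 18 regions had a median width of 3012 bp, from 936 to 11479 bp, against a median of 1948 bp for all 22570 regions. A single interval made up 4 of them (22.2%, against 35.3% of all regions), 3 intervals made up 13 and 5 intervals made up 1.

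Among the long members, Slfn8 (83002125 to 83020810, minus strand) had the highest number within 50 kb, with 7 regions, as many as or more than 93.1% of protein-coding genes. Within 100 kb it had 9, as did Slfn5, and Slfn9 had 10. All 7 were also counted for Slfn9, Slfn2 or Slfn5. A region of 1692 bp (chr11:83020014-83021705) lay over the Slfn8 start and another of 936 bp, a single interval, lay 810 bp further into the gene. Slfn9 (82974316 to 82991830, minus strand), the neighbour with the similar start window, had 4 regions, and 1 of 2564 bp covered its start (chr11:82991140-82993703). Slfn5 (82951349 to 82964850, plus strand) had 3 regions, of which 1 of 4318 bp covered the start (chr11:82950689-82955006) and also overlapped the antisense non-coding gene Slfn5os. The remaining pair for Slfn5 lay at the starts of Nle1 and Slfn9. These starts were thus each covered by 1 region of moderate width, at percentiles 87.2 (Slfn5), 67.0 (Slfn9) and 40.6 (Slfn8) of all region widths.

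Slfn14 (83275110 to 83286726, minus strand), the fourth long member, differed from them in that no region overlapped it. Its 4 regions were counted for no other member and all held other annotated genes. The nearest to the start (chr11:83290450-83294493) had its near edge 3.72 kb upstream of it and held the start of the non-coding gene AA465934. A pair further upstream overlapped Ap2b1, an adaptor subunit gene of clathrin-coated vesicles. The last lay beyond the 3′ end of Slfn14, over the small RNA gene Gm23444.

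The short genes Slfn2 and Slfn1 are of similar size (5567 and 5851 bp) and lie next to each other, yet Slfn2 lay inside a MED1 region and Slfn1 outside all of them. Slfn2 (83065112 to 83070678, plus strand) had 6 regions and lay wholly inside 1 of them (chr11:83060218-83071156), as did 1.55% of protein-coding genes. That region measured 10939 bp, at percentile 98.2 of all widths, and began 4894 bp before the Slfn2 start. It also contained the antisense non-coding gene Gm20234. A single-interval region of 1671 bp ended 585 bp before it, and a region of 11479 bp, the widest of the family and the only one of 5 intervals (chr11:83036971-83048449), overlapped Slfn10-ps, a gene between Slfn8 and Slfn2 that RefSeq does not class as protein-coding. When regions at most 12.5 kb apart were stitched, the 4 regions from Slfn10-ps past Slfn2 formed a cluster that covered 26.7 kb and ranked 183 of 13554 by covered length (top 1.35%).

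Slfn1 (83116820 to 83122670, plus strand) had 2 regions and neither touched the gene. The nearer (chr11:83123824-83125286), a single interval of 1463 bp, lay 7004 bp downstream of the start and beyond the 3′ end, and overlapped the non-coding gene Gm38922. It stood alone, with 43.9 kb free of regions on the Slfn2 side and 48.5 kb free on the Slfn4 side, the longest gap between neighbouring regions of the family. Within 50 kb the count of Slfn1 was the lowest of the members, and 53.9% of protein-coding genes had as many or fewer. Within 100 kb Slfn1 had 10 regions, level with Slfn9 as the highest count of the members.

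The intermediate genes Slfn4 (83175172 to 83190216) and Slfn3 (83191330 to 83215154), both on the plus strand, shared the same 4 regions. Slfn4 was overlapped by 3 of them, which covered 79.3% of its body. The region at its start (chr11:83173742-83181882) measured 8141 bp, at percentile 96.6, and a single interval of 4225 bp followed 621 bp further on. A region of 3456 bp (chr11:83189228-83192683) overlapped the 3′ end of Slfn4 and the start of Slfn3, so it cannot be assigned to 1 of them. It was the only region that overlapped Slfn3, whose body was covered to 5.68%. Stitched, these 3 regions formed a cluster of 15.8 kb covered length that ranked 566 of 13554 (top 4.18%).

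**Figure D2:**
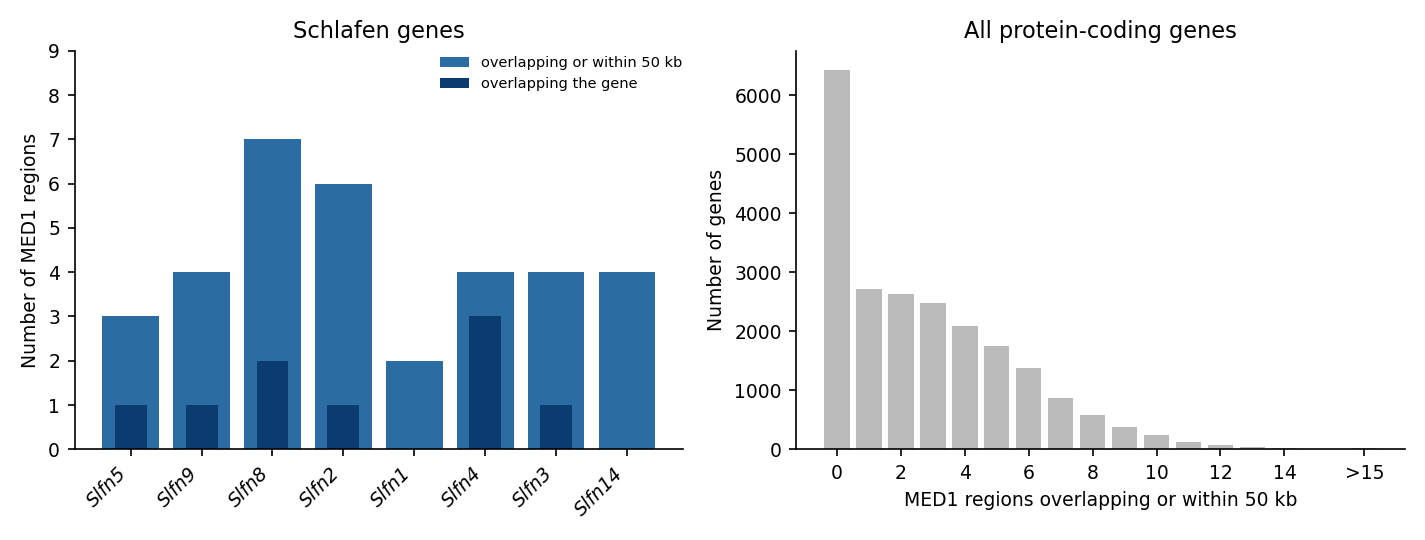
Left, the number of MED1 regions for each Schlafen gene, with wide bars for regions that overlap the gene or lie within 50 kb and narrow bars for those that overlap it. Right, the number of protein-coding genes at each count within the same distance. Members range from 2 (Slfn1) to 7 (Slfn8), against a median of 2 and an upper quartile of 5 over 21887 genes.

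Counts within 50 kb had a median of 4 over the members and of 2 over all protein-coding genes (quartiles 0 and 5). With 4 regions each, Slfn9, Slfn4, Slfn3 and Slfn14 could not be ranked among themselves. The 50 kb limit left regions close by on either side: the last counted for Slfn8 had its midpoint 49.3 kb away, and the first not counted for Slfn14 was 50.5 kb away and that for Slfn4 was 50.6 kb away. Within 10 kb, Slfn8, Slfn2, Slfn4 and Slfn3 had 3 regions each, Slfn14 had 2, and Slfn5, Slfn9 and Slfn1 had 1 each. Within 100 kb, Slfn9 and Slfn1 had 10 each, Slfn5, Slfn8 and Slfn3 had 9, Slfn2 and Slfn14 had 8 and Slfn4 had 7, so the order of the members depends on the window.

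The share of the gene body inside regions separated the members more widely than the counts did. It was 100% in Slfn2 and 79.3% in Slfn4, as high as or higher than in 97.6% of protein-coding genes for Slfn4. Slfn5 followed with 27.1%, Slfn8 with 9.27%, Slfn3 with 5.68% and Slfn9 with 3.95%, and Slfn1 and Slfn14 had 0. The median over all protein-coding genes was 0.256% and the upper quartile 8.28%. The measure depends on gene length, which ran from 5567 bp in Slfn2 to 23825 bp in Slfn3.

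**Figure D3:**
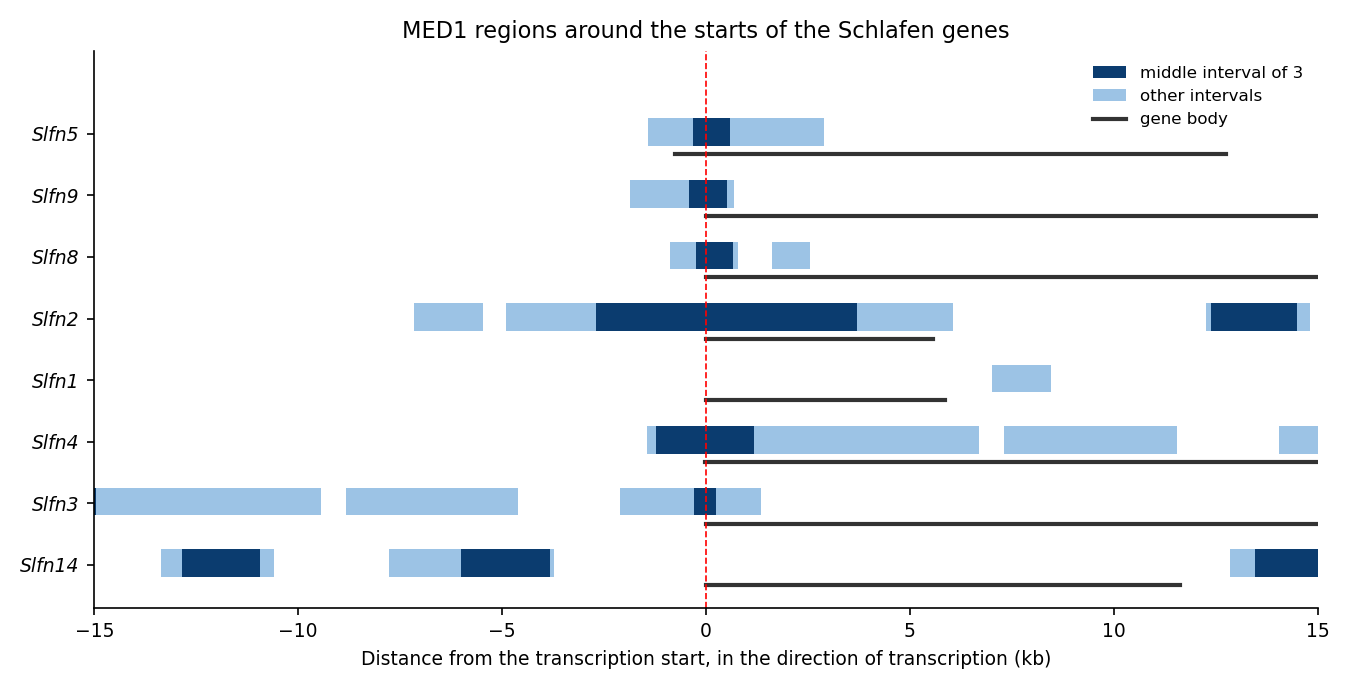
MED1 regions within 15 kb of each Schlafen start, turned so that transcription runs to the right, with distance from the start in kb on the horizontal axis. Dark blue marks the middle interval of regions made of 3, light blue all other intervals, the solid black line the gene body and the dashed line the start. In the 6 genes with a region at the start, the start lies in the middle interval, which makes up 15.6 to 58.4% of the region.

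In the regions at the Schlafen starts the middle interval took up a smaller share than in most 3-interval regions that hold a protein-coding start. This share was not among the planned results. All 6 consisted of 3 abutting intervals with the start in the middle one, and this was usual, since 95.9% of the 5965 protein-coding starts in 3-interval regions lay in the middle interval. The middle interval made up 15.6% of the region at Slfn3 (540 bp of 3456 bp), 21.0% at Slfn5, 29.6% at Slfn4, 35.9% at Slfn9, 53.8% at Slfn8 and 58.4% at Slfn2. Over the 5250 regions of 3 intervals that hold a protein-coding start, the median was 80.9% (quartiles 69.1 and 89.1%), so all 6 lay below the lower quartile. At Slfn3, 0.190% of those regions had a share as low or lower, at Slfn5 0.648%, at Slfn4 1.92%, at Slfn9 3.20%, at Slfn8 9.79% and at Slfn2 12.8%. The regions compared were not matched for width, and those at Slfn2 and Slfn4 lay at percentiles 98.2 and 96.6 of all widths. Whether the share changes with region width was not tested. The other 7 regions of 3 intervals near the family, which hold no Schlafen start, had shares of 53.7 to 96.5%. That range includes the shares at Slfn8 and Slfn2. What separates the intervals within a region is not stated in the sources used here.

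The flanking intervals lay on different sides of the start. At Slfn4 the wide flank of 5519 bp ran into the gene, as did the flank of 2311 bp at Slfn5. At Slfn9 the wide flank of 1461 bp lay upstream of the start. At Slfn2 the flanks were of similar width, 2204 bp upstream and 2346 bp at the 3′ end of the gene. At Slfn3 the wider flank, 1798 bp, lay upstream and reached the end of Slfn4.

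**Figure D4:**
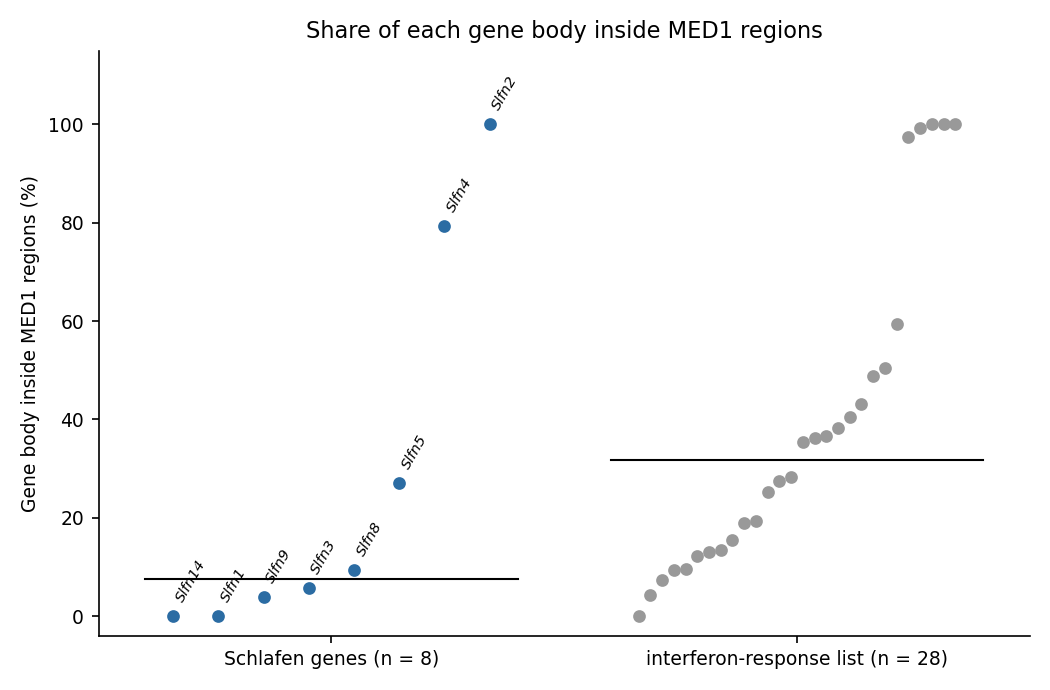
Share of each gene body that lies inside MED1 regions, in per cent, for the 8 Schlafen genes (left) and for 28 genes of an interferon-response list (right), 1 point per gene with the median as a line. Slfn2 (100%) and Slfn4 (79.3%) stand above the other Schlafen genes, which lie between 0 and 27.1%.

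Set beside a list of interferon-response genes, the members had the same median number of regions and a smaller median share of the gene body inside them. Of 30 listed genes 28 were found among the protein-coding genes, and all 28 had a region overlapping or within 50 kb, with a median of 4, the same as for the members. A region overlapped 6 of 8 members and 27 of 28 listed genes, of which Ifit3, an antiviral protein gene, was the exception. A region lay in the start window of 6 of 8 members and of 21 of the 22 listed genes with such a window. The median share of the body inside regions was 7.48% for the members and 31.8% for the list. The listed genes with the most regions were Stat2 (11) and Irf9 (8), which encode parts of the type I interferon transcription complex, Trim25 (10), a ubiquitin ligase gene of RNA sensing, and Bst2 (7), encoding the virus-tethering protein tetherin. These differences were not tested, and the list was drawn up with earlier results of these data known.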

How the data were processed

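The ChIP-seq libraries came from RAW 264.7 cells given LPS for 2 h (2 libraries) or left untreated (2 libraries). Per the submitters' processing notes, the tools were Bowtie, SAMtools and MACS2 2.2.6, on mm10. How peaks were called, against which control, and whether libraries were pooled is not given in the sources used here. On every line the score deposited by the authors is 0, so only positions were used, and the planned comparison of LPS with untreated cells was not made. No column of another sample was present. Without counts, read depth and the precision it gives cannot be stated.

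Abutting intervals were joined, 4 mitochondrial intervals were left out, and coordinates are 1-based. Gene positions, starts and sequences came from RefSeq tables of GRCm38.p6, in which all 8 members were matched. Where a gene has several starts, the one listed first was used. Start windows were aligned globally (match 2, mismatch -1, gap opening -4, gap extension -0.5). All 8 members were named, with other genes overlapping or nearest to their regions, and from the interferon list the 4 members with the most regions. Ifit3 was chosen after its values were seen. Some genes and motifs are not reported here. Members, lists and tests were chosen with earlier results of these data known. Counting was tested on simulated data and recovered 400 of 400 joined regions and the counts at 300 of 300 genes. Python 3.11.15, numpy 2.4.6, pandas 2.3.3, Biopython 1.88 and matplotlib 3.10.9 were used.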

Additional observations from a re-analysis of the deposited data

How the results depend on the processing

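Without joining, 48 intervals were counted for the family in place of 18 regions, and counts per member were 5 to 18. Each of the other alternatives left the 4 counts of the family within 1.5 times the values given. The number of separate regions ranged from 13, with regions narrower than the median width left out, to 20, with a window of 100 kb. All 8 members kept a region under every alternative, a window of 10 kb included. Of all protein-coding genes, 57.9% had a region with a window of 10 kb and 77.1% with 100 kb. With regions narrower than the median width left out, 56.0% had one within 50 kb. With narrow regions left out, 5 members were overlapped and 5 had a region at the start, against 32.0 and 26.5% of protein-coding genes. Slfn8, whose start region is narrower than the median, then lacked a region at its start, as Slfn1 and Slfn14 did with all regions counted. Leaving out regions of 1 interval, joining regions at most 500 bp apart, taking 1 kb on either side of the start or any overlap with the 50 kb window changed none of the counts of members. Without regions of 1 interval, 65.8% of protein-coding genes had a region within 50 kb, 43.1% were overlapped and 37.9% had one at the start. Joining at 500 bp left these shares at 70.6, 50.6 and 43.7%. With 1 kb on either side, 45.4% had a region at the start, and by any overlap 70.8% had one near. Counts of single members moved more than those of the family, by over 1.5 times in 25 of 64 cases. The order of the members differed between windows of 10, 50 and 100 kb. Alternatives chosen after seeing the data were midpoints alone, any listed start, and Slfn10-ps as a ninth member. With Slfn10-ps, 9 members had a region and 7 were overlapped, against 70.6 and 50.6% of protein-coding genes. No library could be left out, since the list is not divided by library. No paired analysis was possible because no interval carries a library or a condition.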
